A study of Mus musculus with 4 samples.

Results

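The genes described here encode the proteins of the cytosolic ribosome. They were chosen by symbol: every listed gene named Rps or Rpl followed by a number, the stalk genes Rplp0, Rplp1 and Rplp2, Rpsa, Rps3a1 and the named second copies, with pseudogenes called "-ps" left out. The rule found 87 of 56980 listed genes. Of these, 77 are core subunit genes, 46 for the large and 31 for the small subunit, and 10 are second copies: 8 paralogs and the 2 copies Rpl6l and Rpl32l. Rps4l, Rpl6l and Rpl32l are annotated as pseudogenes in GENCODE M21. The symbol rule misses Fau and Rack1, which also encode ribosomal proteins and are given beside the members.

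The samples were mesenchymal stromal cells (MSCs), the supporting cells of the bone marrow that feed and retain blood stem cells. Cells negative for CD45, Ter119, CD31 and Sca1 and positive for CD51 and PDGFRa were sorted from wild-type male C57BL/6J mice aged 14 weeks. Each of 4 libraries held 100 cells from 1 mouse, and the 4 libraries form 1 group, so the data compare no conditions. The libraries held 22738604 to 43545349 counted read pairs, of which the members took 1230398 to 2012970. In bulk samples of this kind, fewer cells of a type and less RNA per cell cannot be told apart.

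The sort matched its markers in part. Levels are given as TPM, in which a gene's count is divided by its merged-exon length and then scaled to the same total in every library. Pdgfra was at 39.8 ± 7.29 TPM (SD, n = 4) and Itgav, which encodes CD51, at 15.7 ± 2.51 TPM, while Ptprc (CD45) averaged 0.0701 TPM and Pecam1 (CD31) 0.135 TPM. Ly6a (Sca1) reached 11.6 TPM in mouse 4. The 5 erythroid genes chosen as markers summed to 4885 TPM in mouse 1, 1669.8 in mouse 3, 351 in mouse 4 and 35.0 in mouse 2. All of them were above a median of 1 TPM, with Alas2 at 0 in mice 2 and 4. The members' share of TPM was 7.36% in mouse 1 and 7.33% in mouse 2, and the part of erythroid RNA in the levels was not tested. The 4 macrophage markers summed to at most 0.623 TPM, the 4 endothelial markers to at most 1.12 TPM, the 4 neutrophil markers to 4.09 to 30.7 TPM, highest in mouse 1, and the 4 adipocyte markers to 199 to 962 TPM, highest in mouse 2. Those of osteoblasts, led by Bglap, summed to 77792 to 168024 TPM.

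The ribosome reads mRNA on its small subunit and joins amino acids on its large subunit, and each core protein is present about once per ribosome, apart from the stalk proteins P1 and P2. The mRNAs of ribosomal proteins are short and abundant, and most of them begin with a C followed by a run of pyrimidines, the 5′ terminal oligopyrimidine (TOP) motif through which mTOR signalling sets their translation. Most of the genes also have processed pseudogenes, copies of the mRNA pasted back into the genome, so a read from the gene can fit its copies equally well.

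A start-site pyrimidine run, which the symbol rule did not use, was more frequent among the members than over all annotated starts. Most of the members' starts lacked it. Of the 87 members, 65 had an entry among the RefSeq promoter windows of build GRCm38.p6, which run from 250 bases before an annotated start to 50 bases after it, and these genes had 77 windows of 300 bases. The start base was a C in 29.9% of the members' windows and in 16.3% of all windows. The full set of windows was not limited to genes expressed here. A C followed by pyrimidines only, for at least 8 bases from the start base itself, was found in 10 of 77 windows (13%) and in 0.779% of all 32851 windows. Within 5 bases on either side of the start, the shares were 28.6% and 4.37%. The following windows, each of 35 bases before and 20 bases from the annotated start, show the 8 of 10 such genes with the highest level, with the pyrimidine run in capitals.
Rpl38: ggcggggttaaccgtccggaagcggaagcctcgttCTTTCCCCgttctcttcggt
Rpl35: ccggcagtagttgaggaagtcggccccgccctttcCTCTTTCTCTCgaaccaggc
Rps6: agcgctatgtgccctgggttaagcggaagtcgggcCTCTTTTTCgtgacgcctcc
Rps18: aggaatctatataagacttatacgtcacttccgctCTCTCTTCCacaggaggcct
Rpl15: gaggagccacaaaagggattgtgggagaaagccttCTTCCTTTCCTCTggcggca
Rpl28: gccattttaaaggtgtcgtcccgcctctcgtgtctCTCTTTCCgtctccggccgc
Rpl35a: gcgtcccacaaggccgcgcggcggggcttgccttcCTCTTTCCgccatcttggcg
Rps15a: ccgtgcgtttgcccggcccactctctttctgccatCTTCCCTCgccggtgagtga

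These windows lie at chr11:114668545-114668599 on the plus strand for Rpl38, chr2:39005112-39005166 on the minus strand for Rpl35, chr4:86857348-86857402 on the minus strand for Rps6 and chr17:33955646-33955700 on the minus strand for Rps18. Those of Rpl15, at chr14:18270967-18271021, and Rps15a, at chr7:118116128-118116182, are on the minus strand, and those of Rpl28, at chr7:4792930-4792984, and Rpl35a, at chr16:33056447-33056501, on the plus strand. The run was 13 bases long in Rpl15, the longest among the members with a window. The 8 genes covered a wide span of levels, from 176 TPM for Rps15a to 2577 TPM for Rpl38.

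Other letters were also more frequent in the members' windows, counted on both strands. TCTCGCGA was found in 15.6% of the members' windows against 0.995% of all windows, and CCGGAA, the core of sites for ETS factors, in 46.8% against 14.9%. AAGATGGC, the core of YY1 sites, was found in 10.4% against 2.75%, and GGGCGG in 59.7% against 35.7%. The TATA-like letters TATAA did not set the members apart, with 24.7% against 24.9%. The 3 genes with the highest level among those holding TCTCGCGA, in either direction and in capitals, are shown in 60 bases each. In Rps28 a forward and a reversed match overlap.
Rps3a1: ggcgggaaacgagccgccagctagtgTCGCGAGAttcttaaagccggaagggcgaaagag
Rpl35: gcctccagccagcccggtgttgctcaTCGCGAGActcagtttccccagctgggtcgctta
Rps28: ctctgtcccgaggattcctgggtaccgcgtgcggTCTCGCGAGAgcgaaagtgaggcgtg

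These stretches are chr3:86142661-86142720 for Rps3a1, chr2:39005287-39005346 for Rpl35 and chr17:33824538-33824597 for Rps28, all on the minus strand. A match describes letters in a window and was not tested for binding.

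The members made up a steady part of the transcriptome. The members held 7.36%, 7.33%, 7.26% and 7.87% of TPM in mice 1 to 4, or 7.46 ± 0.282% (SD, n = 4). Mouse 4 stood above the other 3. By the study's own cutoff for an expressed gene, a median above 1 TPM over the mice, 85 of the 87 members were expressed, and so were 22.9% of all genes with a length. All 77 core genes passed it, and 76 of them were above 1 TPM in every mouse.

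The core genes ranked high but not alike. Of the 77, 25 were among the 100 most highly expressed genes and 67 among the highest 500. The per-mouse median of the core genes was 608, 656, 668 and 709 TPM in mice 1 to 4. The 10 highest held 39.5% of the core TPM. These were Rplp1, Rplp0, Rpl36, Rpl41, Rps27, Rpl38, Rps29, Rpl32, Rpl4 and Rps3a1, 7 of the large and 3 of the small subunit. Rplp1 was at 5180.4, 6245, 4574 and 6096 TPM, and Rplp0, which anchors it, at 4345, 3297, 3572 and 4172 TPM. Per merged exons Rplp0 was below Rplp1 in every mouse, but per mRNA length it was above it in mouse 1, at 3588 against 3501 TPM. Leaving out Rps10, Rpl24 and Rpl13a, which are described below, the highest core gene was 41.7-fold above the lowest, and 47 of 74 lay within 2-fold of their median.

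**Figure D1:**
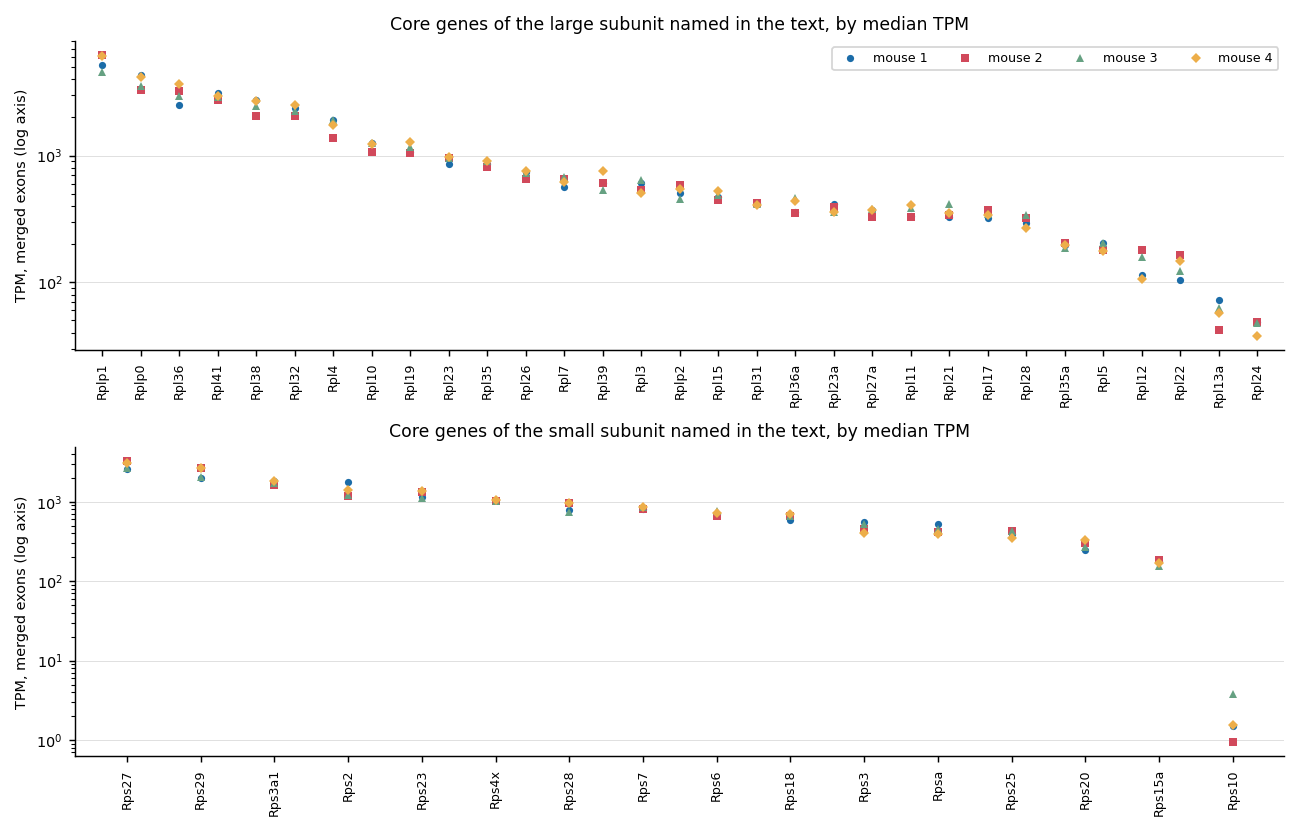
TPM (log axis, per length of the merged exons) of the core genes named in the text in each of 4 mice, 31 of the large and 16 of the small subunit, with genes ordered by median. The points of a gene lie close together compared with the 41.7-fold span between genes other than Rps10, Rpl24 and Rpl13a. Rps10, at a median of 1.52 TPM, lies far below the others.

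The order of the genes depended on the length used. The merged exons, which take in all annotated transcripts of a gene, were 2.06-fold longer than the principal annotated mRNA for the median core gene, at most 7.18-fold. Per mRNA length, the median of the core genes was 1043 TPM in place of 661 TPM over genes, 7 of the 10 highest genes were the same, and Rps27 led with 5302, 6655, 5435 and 6287 TPM in mice 1 to 4. Rpl36 moved from rank 3 to rank 15. The lengths also set the rank of Rps15a and Rps20, whose principal annotated mRNAs of 5179 and 3706 bases are far longer than the median of 780 bases. Across 76 core genes with at least 100 counts in every mouse, the levels by merged exons and by mRNA length had a Pearson r of 0.86 on the log scale, over genes that share the same counts.

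The small subunit lay above the large subunit by median. Its 31 genes had a per-mouse median of 802 ± 39.0 TPM and the 46 large-subunit genes one of 571 ± 13.7 TPM (SD, n = 4). Large minus small was -0.49 ± 0.07 on the log2(TPM + 1) scale, negative in every mouse, and -0.23 ± 0.07 per mRNA length. The medians are over different genes, so the values describe the lists and carry no test. In summed TPM the large subunit, with more genes, held 44632 ± 1769 and the small subunit 28423 ± 1154.

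Genes of one structure differed widely. The lateral stalk of the large subunit, which recruits elongation factors, is built of P0, P1 and P2, with Rpl12 at its base. Rplp1 exceeded Rplp2, at 506, 588, 453 and 546 TPM in mice 1 to 4, by 10.1-fold to 11.2-fold within a mouse, and by 4.70-fold to 5.19-fold per mRNA length, although their proteins form pairs. Rpl12 was at 114, 178, 159 and 106 TPM, the most variable core gene after Rps10, and ran higher in mice 2 and 3 than in mice 1 and 4.

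Rpl5 and Rpl11 join the 5S rRNA and, outside the ribosome, bind Mdm2, the ligase that restrains p53. Rpl11 was at 335, 326, 388 and 411 TPM and Rpl5 at 204, 179, 204 and 178 TPM, so Rpl11 was higher by 1.64-fold to 2.31-fold within a mouse and by 2.77-fold to 3.90-fold per mRNA length. On the opposite strand Fam69a, with 189, 1833, 1150 and 600 counts, overlapped 46.6% of the Rpl5 mRNA, and no gene overlapped that of Rpl11. Near-identical annotated sequence elsewhere covered 96.4% of the Rpl5 mRNA and 64.5% of the Rpl11 mRNA. The part of overlap and copies in the difference was not tested.

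The 8 genes whose proteins line the exit tunnel or its mouth had medians from 341 TPM for Rpl17 to 1814 TPM for Rpl4. Rpl4 was at 1903, 1366, 1898 and 1731 TPM, lowest in mouse 2, and Rpl19 at 1064, 1049, 1179 and 1287 TPM. Rpl26 lay between 656 and 752 TPM, Rpl35 between 818 and 914 TPM, Rpl39 between 536 and 751 TPM and Rpl23a between 356 and 418 TPM. Of the list, Rpl31 was the steadiest, as described below.

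Of the 3 small-subunit genes of the mRNA entry and decoding region, Rps2 was at 1753, 1179, 1219.7 and 1388 TPM, Rps23 at 1133, 1318, 1114 and 1355 TPM and Rps3 at 554, 453, 520.4 and 405 TPM. Rps2 was highest in mouse 1 and Rps23 in mouse 4. Core genes lay on 19 chromosomes, and 4 of them on the X chromosome, where a male cell has 1 copy. The X-linked genes were among the others by level, with Rpl10 at a median of 1242 TPM, Rps4x at 1048, Rpl39 at 605 and Rpl36a at 402. The 19 members linked to Diamond-Blackfan anaemia, a failure of red cell production in people, had a median of 516 TPM, beside 661 TPM for all core genes, and ranged from 1.52 TPM for Rps10 to 2853 TPM for Rps27.

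Rps10, Rpl24 and Rpl13a stood at the bottom of the core genes by either length. Rps10, a protein of the small-subunit head, had 61, 24, 150 and 37 counts in mice 1 to 4, or 1.5, 0.934, 3.76 and 1.55 TPM. It was the only core gene under 1 TPM in any mouse, and mouse 3 was above the other 3. Rpl24 was at 48.8, 48.4, 47.4 and 37.9 TPM, lower in mouse 4, and Rpl13a at 72.3, 41.7, 63.1 and 57.4 TPM. The next lowest core gene, Rpl22, had a median of 135 TPM.

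These 3 were also the only core genes that share over 50% of their mRNA with another gene on the same strand in GENCODE M21. The shared part was 53.6% in Rps10, with RPS10-NUDT3, 71.5% in Rpl24, with Gm28037, and 59.3% in Rpl13a, with Gm45713, and each of the partners had 0 counts in all 4 mice. The counts were made without strand, and genes on the opposite strand overlapped over 50% of the mRNA of 3 other core genes. Those 3 other core genes had medians of 884 TPM for Rpl35, 408 for Rps25 and 378 for Rpl23a. By its default setting the counting leaves out a pair that overlaps 2 genes. The outcome was not tested, since the reads were not analysed here.

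Among the core genes, the share of family counts on pseudogenes was highest for Rps10, Rpl13a and Rpl24. A gene's own counts stand in the denominator, so a low gene has a higher share for the same pseudogene counts. Annotated pseudogenes counted as near-identical where 100 or more of their bases aligned to the mRNA and 95% or more of these were the same. Their counts made up 95.1% of the counts of Rps10 and its copies together, 53.0% for Rpl13a and 42.9% for Rpl24, beside a median of 6.95% over the core genes. Rpl23a followed with 35.6%, and 4 of 77 core genes were at or above 25%. Near-identical annotated sequence covered 58.1% of the Rps10 mRNA, 60.7% of Rpl13a and 83.5% of Rpl24, beside 74.3% for the median core gene. Rps10 and Rpl13a had 2 near-identical pseudogenes each and Rpl24 had 3, beside a median of 6 per core gene. Over 4 mice the pseudogene counts themselves came to 5324 for Rps10, 8171 for Rpl13a and 2018 for Rpl24, beside a median of 4909 for a core gene, above which Rps10 and Rpl13a lay and below which Rpl24 lay. The processed pseudogene Rps10-ps2, at chr16:20822145-20822640 on GRCm38, alone had 1262, 564, 1057 and 853 counts, more than Rps10 in every mouse. It differs from the Rps10 coding sequence at 5 of 496 aligned positions. Gm9385, at chr9:116040593-116041064, differs from Rpl24 at 1 of 471 and had 345, 309, 358 and 249 counts. Gm11478, at chr11:86630428-86631026, differs from Rpl13a at 12 of 600 aligned positions and had 2234, 1718, 2321 and 1481 counts. All 3 pseudogenes are on the minus strand.

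The 60 coding bases, aligned without a gap, in which each pair differs most are shown. A read that lies within the copied part of an mRNA can be placed only by the letters that differ. They start at coding base 379 of Rps10, 254 of Rpl24 and 93 of Rpl13a. Capitals mark the differing bases, and the sequences are from GENCODE M21.
Rps10: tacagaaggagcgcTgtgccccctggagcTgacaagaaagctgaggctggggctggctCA
Rps10-ps2: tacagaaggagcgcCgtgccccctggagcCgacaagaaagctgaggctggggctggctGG
Rpl24: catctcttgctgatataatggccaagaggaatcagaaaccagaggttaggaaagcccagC
Gm9385: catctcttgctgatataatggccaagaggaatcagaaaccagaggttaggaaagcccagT
Rpl13a: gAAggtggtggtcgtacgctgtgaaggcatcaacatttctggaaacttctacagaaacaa
Gm11478: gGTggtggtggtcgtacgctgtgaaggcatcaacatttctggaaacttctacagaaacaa

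**Figure D2:**
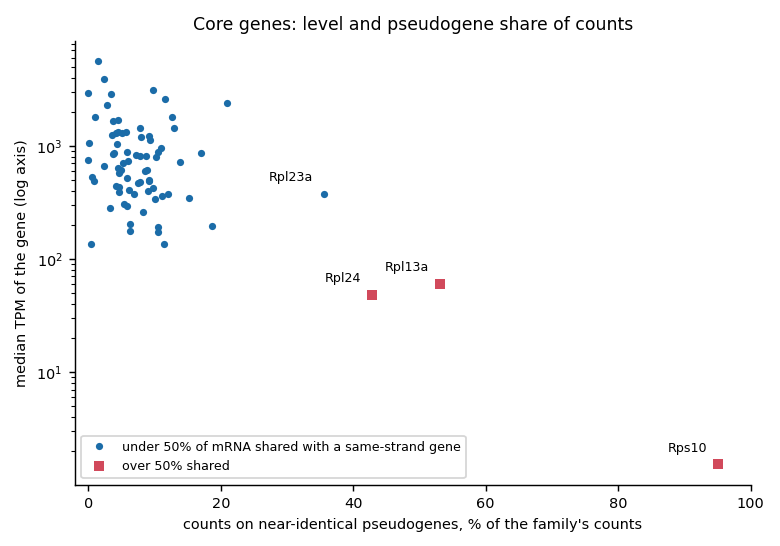
Each point is 1 of 77 core genes, with the share of the family's counts that lies on near-identical annotated pseudogenes (%) against the gene's median TPM (log axis). The 3 squares share over 50% of their mRNA with another gene on the same strand, and sit at the right and the bottom, Rps10 at 95.1% and 1.52 TPM. Overlap with genes on the opposite strand is not marked.

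Copies were also frequent among the highest genes. Near-identical annotated sequence covered 74.3% of the mRNA of the median core gene, and 99.4% of Rplp1 and 98.8% of Rps27, which are among the 10 highest. Rpl35, at a median of 884 TPM, was covered to 99.9%. Rpl21 had the most such pseudogenes, 61, and stood at 346 TPM. Across 76 core genes, level and covered share had a Spearman rho of 0.083 by merged exons and 0.17 by mRNA length, over genes whose counts come from the same 4 libraries. In the counts, made without strand, genes on the opposite strand also overlapped over 50% of the mRNA of 3 core genes: Tlcd1 for Rpl23a, Wdr38 for Rpl35 and Trappc4 for Rps25.

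A core gene and its paralog were compared within each mouse for 8 pairs, by an exact permutation test that flips the signs of the differences (two-sided). With 4 mice it cannot give a p below 0.125, which every pair reached, and the Benjamini-Hochberg adjusted value over the 8 pairs was also 0.125. In 7 pairs the core gene was higher in 4 of 4 mice. In 1 pair, Rpl22 and Rpl22l1, the paralog was higher in 4 of 4 mice, per merged exons and per mRNA length.

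Rpl22 and Rpl22l1 encode a large-subunit protein of which a ribosome holds either form. Rpl22 was at 104, 163, 123 and 148 TPM and Rpl22l1 at 379, 369, 312 and 316 TPM, so the groups of values did not overlap. Rpl22 minus Rpl22l1 was -1.36 ± 0.35 on the log2(TPM + 1) scale (SD, n = 4) and -0.60 ± 0.35 per mRNA length. Rpl22l1 held 71.9 ± 4.64% of the summed TPM of the pair, most in mouse 1 with 78.5%. The coding sequences are 68.3% identical, with 118 differences over 372 aligned positions. Near their start the 60 aligned bases below hold 21 differences, in capitals.
Rpl22: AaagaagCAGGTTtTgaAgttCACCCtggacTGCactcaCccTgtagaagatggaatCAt
Rpl22l1: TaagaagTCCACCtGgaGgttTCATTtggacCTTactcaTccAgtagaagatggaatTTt

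Rpl22 lies at chr4:152325742-152334071 and Rpl22l1 at chr3:28805436-28807424 on GRCm38, both on the plus strand. An antisense gene, Gm33051, covers 28.8% of the Rpl22l1 mRNA and had 0 counts in all 4 mice.

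Rps27 and Rps27l encode nearly the same small-subunit protein. Rps27l was at 729.9, 706, 563 and 760.2 TPM, the highest of the paralogs per merged exons though under Rpl22l1 by mean per mRNA length, against 2595, 3217, 2668 and 3038 TPM for Rps27. Rps27 minus Rps27l was 2.06 ± 0.19 on the log2(TPM + 1) scale and 2.95 ± 0.19 per mRNA length, and per merged exons Rps27l held 19.4 ± 2.06% of the pair. The first 60 coding bases differ at 18 positions, in capitals.
Rps27: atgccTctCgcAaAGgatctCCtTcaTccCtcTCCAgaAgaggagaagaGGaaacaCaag
Rps27l: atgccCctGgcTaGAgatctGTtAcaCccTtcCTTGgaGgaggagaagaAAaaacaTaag

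Rps4x is X-linked, and Rps4l on chromosome 6 is annotated as a transcribed processed pseudogene that keeps 79.8% identity to the Rps4x coding sequence. Rps4l was at 216, 147, 311 and 153 TPM, higher in mice 1 and 3, while Rps4x stayed between 1027 and 1065 TPM. Rps4x minus Rps4l was 2.40 ± 0.51 on the log2(TPM + 1) scale and 2.89 ± 0.51 per mRNA length. The first 60 coding bases differ at 7 positions.
Rps4x: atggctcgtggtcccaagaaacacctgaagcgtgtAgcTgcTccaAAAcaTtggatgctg
Rps4l: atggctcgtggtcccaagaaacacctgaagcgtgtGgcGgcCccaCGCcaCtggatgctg

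Rps4x lies at chrX:102184941-102189394 on the minus strand and Rps4l at chr6:148354656-148355598 on the plus strand, and Rps27 at chr3:90212522-90213651 on the minus strand and Rps27l at chr9:66946086-66949516 on the plus strand.

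The other paralogs were lower and differed between mice. Rpl39l was at 22.6, 91.4, 120.5 and 101 TPM, with mouse 1 below the other 3, and Rpl7l1 at 26.3, 79.3, 78.8 and 53.2 TPM, also lowest in mouse 1. Rpl36al was at 58.9, 30.0, 26.5 and 25.3 TPM, with mouse 1 above the other 3. It shares 63.1% of its mRNA with Gm49383, which had 0 counts in every mouse. The core gene exceeded the paralog by 3.11 ± 1.09 for Rpl39, 3.50 ± 0.62 for Rpl7 and 3.56 ± 0.69 for Rpl36a on the log2(TPM + 1) scale. Per mRNA length these differences were 4.28 ± 1.08, 4.28 ± 0.62 and 3.99 ± 0.70. Rpl3l, known from striated muscle, had 0 counts in all 4 libraries, and Rpl3, at 608, 534, 636 and 503 TPM, was at least 2848-fold higher in each mouse than 3 counts of Rpl3l would be in that library. Rpl10l, known from the testis, had 1 count in mouse 4 and 0 in the others, beside 1075 to 1259.8 TPM for Rpl10. Of the remaining copies, Rpl6l was at 17.2 to 19.4 TPM and Rpl32l at 55.6 to 79.1 TPM. Near-identical annotated sequence covers 100% of Rpl6l and 99.7% of Rpl32l, so their counts are uncertain.

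**Figure D3:**
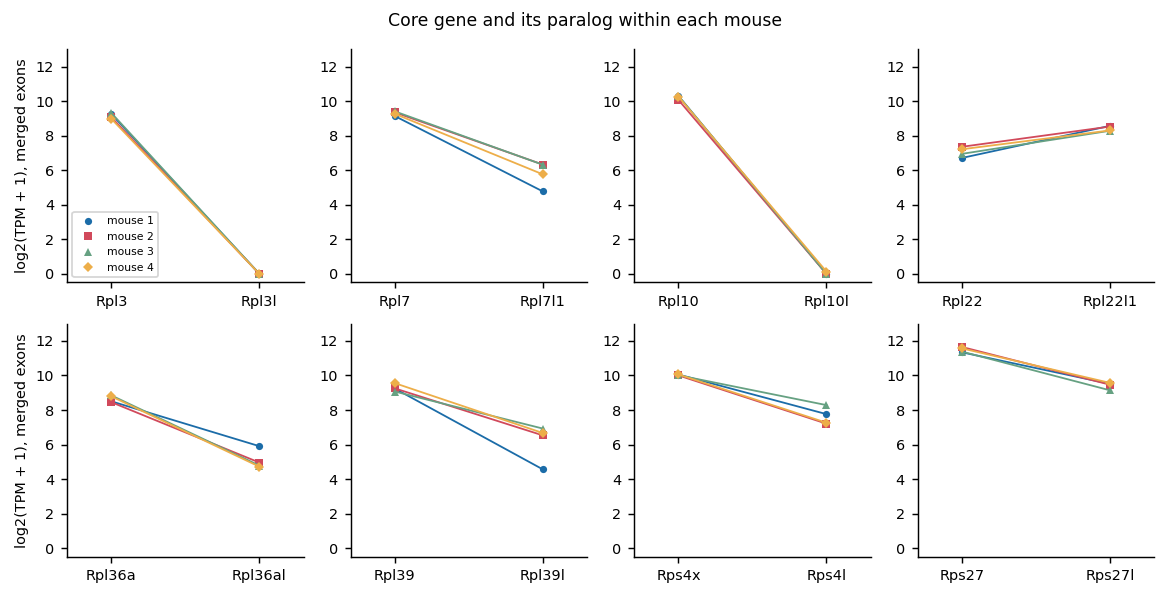
The level of a core gene (left) and its paralog (right), as log2(TPM + 1) per merged exons, joined within each of 4 mice, for 8 pairs. The lines fall in 7 pairs and rise from Rpl22 to Rpl22l1 in every mouse.

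The core genes varied little between mice. The coefficient of variation (CV, the SD over 4 mice as a percentage of the mean TPM) had a median of 9.99% over the 77 core genes, beside 53.1% over the 11863 other genes with a median above 1 TPM. Since CV falls with level, genes of like level were set side by side. Between 100 and 1000 TPM the median CV was 9.03% for 50 core genes and 24.7% for 858 other genes, and 49 of the 50 were under the latter value. Above 1000 TPM it was 10.9% for 24 core genes and 19.1% for 76 other genes, and all 24 were under it. Counting error alone gave a median of 0.765% for the core genes, so most of the spread was between libraries.

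Rpl31, which sits at the mouth of the exit tunnel, was the steadiest, at 426, 425, 418 and 411 TPM, a CV of 1.65% beside a counting error of 1.01%. Rps4x, at 1064, 1027, 1032 and 1065 TPM, had a CV of 1.95%. Rpl35a followed with 3.51% and Rps7 with 3.88%. Among all members with at least 100 counts in every mouse, Rpl39l (50.8%), Rpl36al (45.3%), Rpl7l1 (42.4%) and Rps4l (36.9%) had the highest CV, followed by the core gene Rpl12 (25.2%). Rps10 had 64.4%, at counts of 24 to 150. Rpl39l, Rpl36al and Rpl7l1 lay between 10 and 100 TPM, where the median CV of the other genes was 42.4%, so their spread was near that of genes of like level.

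**Figure D4:**
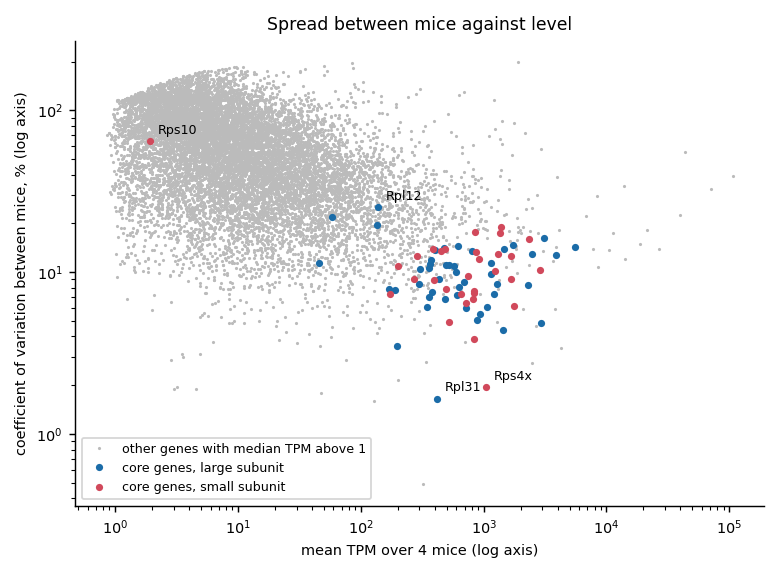
CV between 4 mice (%, log axis) against mean TPM (log axis) for core genes of the large and small subunit and for other genes with a median above 1 TPM. Most core genes lie under most genes of like level, with Rpl12 among the exceptions, and Rpl31 and Rps4x lie lowest among them.

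By the gap of the highest or lowest mouse to its neighbour, divided by the range, and Dixon's 95% critical value, 4 of the 85 expressed members, Rpl23, Rpl24, Rpl27a and Rpl36al, had 1 mouse apart from the rest (4.71%), beside 5.75% of all expressed genes, which is near the background. Mouse 4 had the most core genes at their highest, 28 of 77 (36.4%), against 18.4% of all expressed genes. Mice 1, 2 and 3 had 19, 16 and 14, or 24.7%, 20.8% and 18.2%, against 25.7%, 26.1% and 29.7%. Mouse 2 had the most core genes at their lowest, 31 of 77 (40.3%), against 33% of all expressed genes. Mouse 4 also had the fewest counts and the highest sum of osteoblast markers, 168024 TPM, and their part in these counts was not tested.

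Short and long core mRNAs differed in which mice were high. The 76 core genes with at least 100 counts in every mouse were split at their median length into 38 with an mRNA at or under 777 bases and 38 longer ones. In mouse 4, 29 of the 38 short and 22 of the 38 long ones were above their own mean over mice. In mouse 3, 13 of the short and 26 of the long ones were, in mouse 1, 14 and 17, and in mouse 2, 21 and 15. The same split was not counted over all expressed genes, so it cannot be called particular to the members. Rps29, with an mRNA of 390 bases, was at 2686 TPM in mice 2 and 4 and at 2014 and 2055 TPM in mice 1 and 3. Rps28, Rps27 and Rplp1 were also higher in mice 2 and 4. Rpl4, with an mRNA of 1538 bases, was highest in mice 1 and 3. Other genes did not follow this split: Rpl38, with 364 bases, was lowest in mouse 2, and Rps20, with 3706 bases, was highest in mice 2 and 4. Across the 76 genes, deviation and log2 length had a Pearson r of 0.18, -0.14, 0.31 and -0.30 in mice 1 to 4, weak relations over genes of the same libraries. Over 6205 protein-coding genes the values were -0.06, 0.12, -0.09 and -0.002. The part of library preparation in this was not tested.

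**Figure D5:**
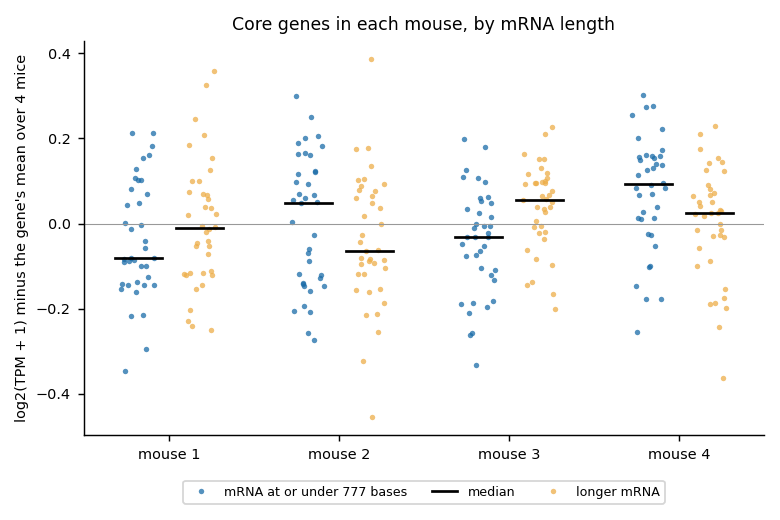
log2(TPM + 1) minus the gene's mean over 4 mice, for 76 core genes in each mouse, split by mRNA length at 777 bases. Bars are medians, which for short mRNAs lie at -0.08, 0.05, -0.03 and 0.09 in mice 1 to 4 and for long ones at -0.01, -0.06, 0.06 and 0.02.

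Genes of translation outside the rule ranged from the level of the highest core genes to far below. Fau, which encodes a ubiquitin-like protein fused to a small-subunit protein, was at 1292 ± 63.5 TPM (SD, n = 4) and Rack1, a scaffold on the small subunit, at 208 ± 34.6 TPM, both within the range of the core genes. Among the 6 elongation factor genes, Eef1a1, which delivers tRNAs, was at 3869 ± 554 TPM, near Rplp0. Eif5a was at 857 ± 307 TPM, Eef2 at 466 ± 78.3, Eef1g at 406 ± 141, Eef1b2 at 382 ± 63.3 and Eef1d at 80.7 ± 6.04. All 27 initiation genes listed had a median above 1 TPM, with a median over the list of 67.3 TPM and a median CV of 24.6%. Their medians ran from 4.04 to 465 TPM. Other genes had a median CV of 42.4% between 10 and 100 TPM and of 24.7% between 100 and 1000 TPM. Of 26 ribosome assembly genes 25 had a median above 1 TPM, with 11.3 TPM and 46.7% over the list. The 11 genes of the mTOR and TOP control list all did, with 7.42 TPM and 56.1%. The mitochondrial ribosome, a separate set of subunits, had 78 of 79 genes above 1 TPM, with a median of 37.6 TPM and a median CV of 36.3%, beside 661 TPM and 9.99% for the cytosolic core genes.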

How the data were processed

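The authors deposited 1 table of raw counts, read pairs per gene, for 56980 genes in 4 libraries made from full-length amplified cDNA. Per the labels and the study's methods, pairs were aligned to GRCm39 with STAR and uniquely mapped pairs were counted on exons with featureCounts of Subread 1.6.5, by default without strand. All 4 columns were used, and each was a mouse of the same group. Nothing beyond the separate mice shows how much of the spread is technical.

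TPM was computed in Python 3.11.15 with pandas 2.3.3 from merged-exon lengths of GENCODE M21 on GRCm38. The 4855 listed genes without a length there were left out. The annotation is older than that of the counts, and no coordinates were converted. The principal transcript (APPRIS tag, support level, name) gave the mRNA length. Shared bases came from the same annotation, and near-identical copies from BLAST 2.17.0 among annotated transcripts only, as no genome was used here. Paired coding sequences were aligned with Biopython 1.88. edgeR 4.0.16 gave TMM factors for an alternative. The lowest level counted as detectable was 3 counts per library, which covers counting error only.

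The only test of a difference in level was the sign-flip test of 8 pairs, adjusted by Benjamini-Hochberg. Dixon's critical value was used to flag single mice, without adjustment for the number of values examined. All other values are descriptions. TPM, the CV, the gap ratio and the sign-flip test were tested on simulated data, and the sequence and overlap steps were not. Named genes are the 10 highest and lowest members by median, the 5 steadiest and 5 most variable with at least 100 counts in every mouse, the 5 with the largest near-identical share, the pairs, the role lists and members with 1 mouse apart. Others named were chosen after their values were seen, and some genes under these rules are not reported here. The members and lists were chosen with earlier results of these data known. Protein sequences were not used here.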

Additional observations from a re-analysis of the deposited data

Results flagged for a closer look

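One of 4 mice stood apart, by Dixon's 95% critical value for the gap over the range, in 8 of the values examined. Chance flags about 1 in 20 such groups. Among the expressed members 4 of 85 (4.71%) were flagged, beside 5.75% of all expressed genes, which is near the background. Mouse 4 was above the others in the members' share of TPM (ratio 0.839, 7.87% against 7.26% to 7.36%) and below them in Rpl24 (0.870). Mouse 1 was below in Rpl23 (0.889, 863 TPM against 960.4 to 973) and above in Rpl36al (0.860). Mouse 2 was below in Rpl27a (0.848, 325 TPM against 371 to 379). Rpl10l had its only count in mouse 4, so its share of the pair stood apart (1). Among elongation factors, Eef1d (0.882, 89.7 TPM) and Eef2 (0.853, 583 TPM) were highest in mouse 3.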

How the results depend on the processing

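The number of members with a median above 1 TPM was 85 under all length, scaling, denominator and pseudogene choices and without any mouse, and 84 with a cutoff of 5 TPM or with 1 TPM required in every mouse. All 8 pair differences kept their sign in 88 alternative values, and the p could not fall below 0.125. The median CV lay between 8.94% (without mouse 2) and 10.02% (without mouse 1) when a mouse was left out, and at 12.04% on counts scaled without length. The share of TPM on the members moved from 7.46% to 8.65% with the longest transcript, 4.84% on counts scaled without length, 8.53% over protein-coding genes outside the mitochondrial genome, 10.3% with mRNA length and 8.37% without Bglap in the denominator, and the median level of the core genes from 660.3 TPM to 865, 518, 756, 1051 and 742. The large minus small difference moved from -0.49 to -0.21, -0.33 and -0.23 with the longest transcript, on counts scaled without length and with mRNA length. These shifts follow from the lengths and denominators themselves. Leaving out each mouse gave a share of 7.32% to 7.52%, a median level of 644 to 678 TPM and a difference of -0.52 to -0.46. Of the 48 members that the rule for named genes picked, 43 moved by more than 1 SD on counts scaled without length (10 upward), 35 with mRNA length (27 upward), 33 over protein-coding genes (all upward), 32 with the longest transcript (23 upward) and 6 with "-ps" pseudogene counts added (all upward, Rps10 from 1.93 to 42.9 TPM), and none with TMM, the median over mice or without a mouse. The alternatives with mRNA length, without Bglap and without the 3 genes that share their mRNA were chosen after seeing the data. No paired analysis was possible because there are no groups of samples to pair, and the test above pairs genes within a mouse. Counting error had a median of 0.765% over the core genes, beside a median CV of 9.99% between mice. Reads that fit several genes were not counted, so levels of members with copies may be understated by an unknown amount.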
